A study of Homo sapiens with 18 samples.

Results

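The genes described here make and remove DNA methylation or carry chromatin states through replication, namely DNMT1, UHRF1, HELLS, DNMT3A, DNMT3B, TET1, TET2, TET3, EZH2 and CHAF1A. They were chosen by name, and all 10 have a row among the 20705 genes of the count table, with 149 to 9437 reads per gene and library. Both lines studied, CHL1 and A375, are established lines of human melanoma, labelled as wild type (WT). The study describes CHL1 as carrying wild-type BRAF and NRAS and mutated p53, and A375 as carrying mutated BRAF and wild-type p53. Cells received DMSO, the CDK4/6 inhibitor palbociclib at 1 μM (CDK4/6i) or the PRMT5 inhibitor GSK3326595 at 500 nM (PRMT5i), and their poly-A RNA was sequenced in 18 libraries. CHL1 contributed 8 libraries in 4 groups of 2, which were DMSO, CDK4/6i and PRMT5i at 72 hours and CDK4/6i at 6 days. A375 contributed 10 libraries in 5 groups of 2, which were the same groups and a DMSO control at 6 days. All CHL1 treatments were therefore compared with the 72-hour control, and the 6-day A375 samples with their own control. Each line is a single model of its genotype, and the labels do not say whether replicates were separate cultures, so p-values measure the spread between these libraries, which may be technical.

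DNMT1 copies methylation onto the new DNA strand behind the replication fork, where UHRF1 recruits it to hemimethylated CpG sites and the remodeller HELLS opens the nucleosomes for it. DNMT3A and DNMT3B set methylation on unmethylated DNA, and the TET dioxygenases oxidise 5-methylcytosine and so start its removal. EZH2 is the catalytic subunit of Polycomb repressive complex PRC2, which methylates histone H3 at lysine K27, and CHAF1A is the large subunit of CAF-1, which deposits histones on replicated DNA. CDK4 and CDK6 phosphorylate RB, which frees E2F factors to transcribe genes of DNA replication, and PRMT5 places symmetric dimethylarginine on splicing factors, histones and other proteins.

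The libraries held 16213475 to 37424081 counts, with a median of 27906170.5. The CHL1 libraries and the 6-day A375 libraries carry the name of one library set and the 72-hour A375 libraries that of another. In 4 libraries, transcripts of high GC content were low. The mean log2 CPM of the richest 10% of genes in GC minus that of the poorest 10% was, as deviation from the median of the line, -2.74 and -2.12 in CHL1 with PRMT5i and -2.43 and -1.21 in the A375 controls of 6 days. It lay between -0.38 and 0.63 in the other libraries. Values or calls with a correction for this trend are therefore given for the affected comparisons, and the origin of the trend was not tested. Of the 9 melanocyte lineage markers, 6 are in the table, and their levels summed to 113 to 285 CPM (the count of a gene relative to the TMM-scaled size of its library). SOX10, MLANA and S100A1 were not analysed here. Levels of the keratinocyte list summed to 7.01 to 58.6 CPM, the immune list reached 17.2 CPM in CHL1 and 0.932 CPM in A375, and the endothelial list reached 2.81 CPM.

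Per kilobase of the longest transcript, DNMT1 and UHRF1 were among the 3 most abundant members in both 72-hour controls, and the de novo enzymes DNMT3A and DNMT3B among the 3 least abundant. In the CHL1 control the order of the mean levels was DNMT1 at 43.9 ± 2.38 CPM per kb (SD, n = 2), EZH2 at 39.1 ± 0.920, UHRF1 at 31.8 ± 4.19, CHAF1A at 30.0 ± 2.86, HELLS at 17.9 ± 0.344 and TET3 at 15.3 ± 0.562. Lower down came TET2 at 7.53 ± 0.0968, DNMT3A at 6.59 ± 0.591, TET1 at 5.52 ± 0.465 and DNMT3B at 4.37 ± 0.234 CPM per kb. Of these neighbours, UHRF1 and CHAF1A differed by less than their pooled SD. In the 72-hour A375 control, UHRF1 at 57.4 ± 6.63 CPM per kb and DNMT1 at 56.7 ± 3.87 led and could not be ranked against each other. They were followed by CHAF1A at 29.7 ± 0.373, EZH2 at 20.2 ± 0.589, HELLS at 16.5 ± 0.337 and TET3 at 8.15 ± 0.128. TET2 at 4.66 ± 0.199 and DNMT3B at 4.62 ± 0.111 again lay within their spread, with TET1 at 3.76 ± 0.442 and DNMT3A at 2.87 ± 0.253 CPM per kb last.

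In the fit of all 18 libraries, 6 of the 10 genes differed between the 72-hour controls of the lines, at a background of 58.9% of all genes called, 29.3% with the higher level in CHL1 and 29.6% with the lower. DNMT3A was 2.30-fold higher in CHL1 (log2 1.20 ± 0.184 SE, adjusted p = 1.9e-05, edgeR), EZH2 1.93-fold (adjusted p = 1.72e-05), TET3 1.88-fold (adjusted p = 1.79e-05), TET2 1.62-fold (adjusted p = 0.00139) and TET1 1.47-fold (adjusted p = 0.0498), all with edgeR. UHRF1 was 1.81-fold lower (adjusted p = 0.0013). The share of members called was near that of all genes. Since the lines also belong to different library sets at 72 hours, line and set cannot be told apart here, and against the 6-day A375 control 3 of the 6 calls were lost (TET2 at -0.24, adjusted p = 0.201, TET1 at 0.11, adjusted p = 0.710, and UHRF1 at -0.09, adjusted p = 0.726, edgeR). Against that 6-day control, 7 of the 10 genes were called, at 61% of all genes. Gained were CHAF1A at 0.93 (adjusted p = 0.000328, edgeR), DNMT3B at 1.06 (adjusted p = 0.000139, edgeR), DNMT1 at 0.47 (adjusted p = 0.0488, edgeR) and HELLS at -0.49 (adjusted p = 0.0273, edgeR). The call of TET1 was also lost with DESeq2 (adjusted p = 0.0653) and with the GC correction (adjusted p = 0.116, edgeR).

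**Figure D1:**
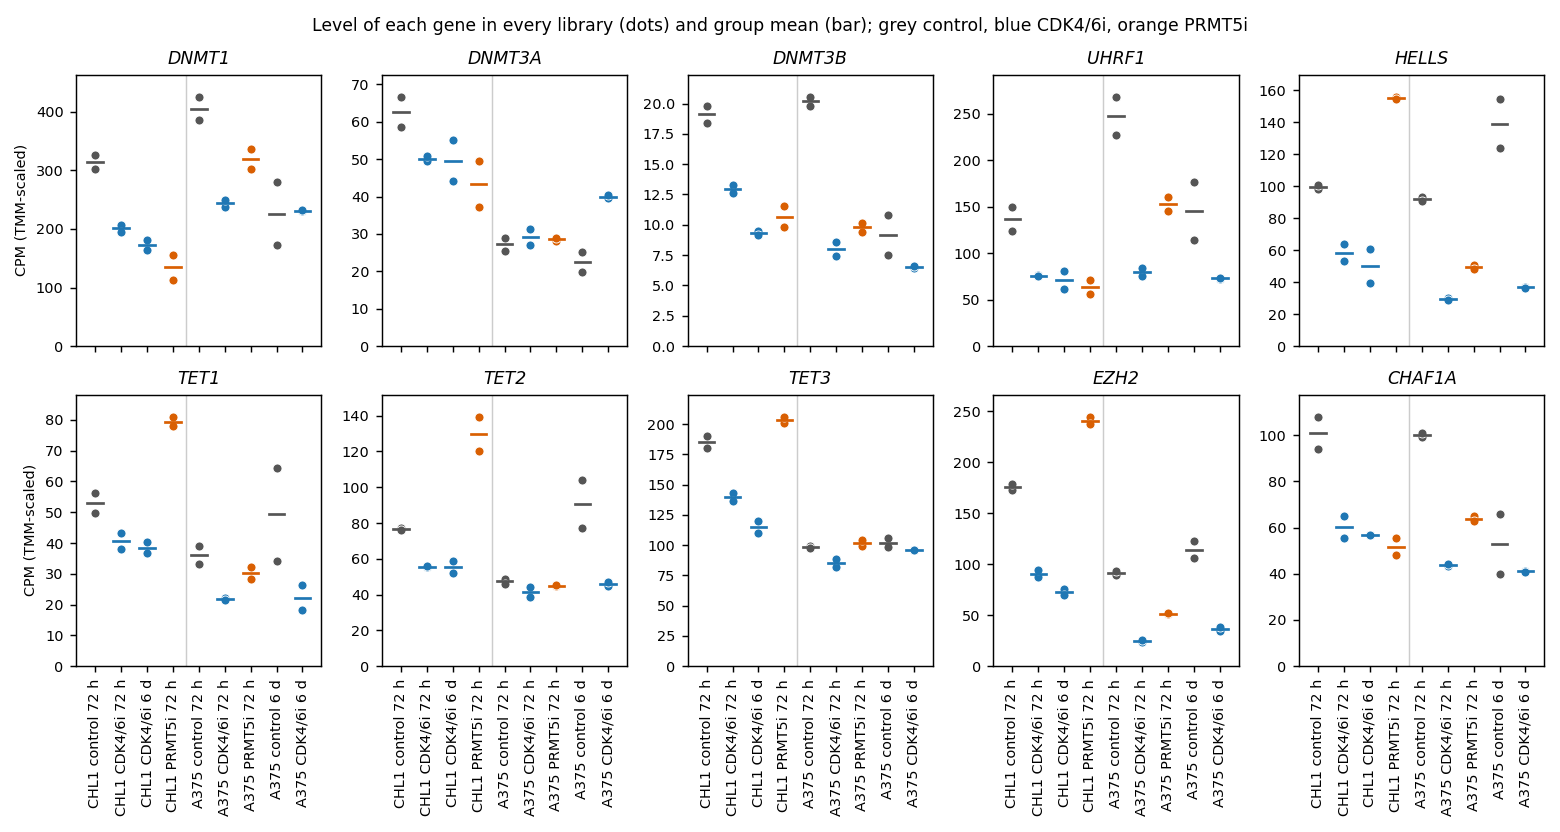
CPM (vertical axis, starting at 0, a different scale for each gene) of the 10 genes in each of the 18 libraries (dots), by group (horizontal axis), with the group mean as a bar. EZH2 fell from 173 and 179 CPM to 87.1 and 94.3 with 72 hours of CDK4/6i in CHL1 and from 89.1 and 92.9 to 23.8 and 25.6 CPM in A375, while DNMT1 spread from 172 to 280 CPM between the A375 6-day controls.

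The promoters of all 10 genes were searched for E2F-type letters. Those printed were picked from the genes with a match, not from all genes that fell with CDK4/6i. Any part of these letters in the response was not tested. The sequences come from the RefSeq promoter table of GRCh38.p14, which holds 250 bases before and 50 bases from each start, and all 10 genes matched by symbol. The letters TTTCCCGC, TTTGGCGC, TTTCGCGC or TTTGCCGC, on either strand, were present in at least 1 window of 4 of the 10 genes, namely DNMT1, UHRF1, HELLS and EZH2. They were present in 3.31% of all 35116 windows and in 5.99% of the 11389 genes that are also in the count table. Without the leading T, which includes all matches of the longer letters, they were also present in CHAF1A and TET3, and in 23.0% of these genes. The other 4 genes held neither form in these windows, which says nothing of E2F binding elsewhere. Also searched were the letters TTTGAA or TTCGAA, present in 2 of the 10 genes, DNMT3A and TET2, and in 16.5% of the 11389 genes. The letters CCAAT were present in 7 of the 10 and in 42.4%. The stretches printed run from 100 bases before the start to base 20 of the transcript, 5′ to 3′ on the strand of the gene, and capitals mark the 8 letters, or in CHAF1A the 7 letters. They lie at chr19:4909401-4909520 (UHRF1, plus strand), chr10:94545688-94545807 (HELLS, plus), chr19:10194934-10195053 (DNMT1, minus), chr7:148884272-148884391 (EZH2, minus) and chr19:4402540-4402659 (CHAF1A, plus).
UHRF1: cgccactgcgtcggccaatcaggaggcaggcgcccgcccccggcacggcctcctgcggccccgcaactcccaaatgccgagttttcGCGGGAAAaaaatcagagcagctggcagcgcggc
HELLS: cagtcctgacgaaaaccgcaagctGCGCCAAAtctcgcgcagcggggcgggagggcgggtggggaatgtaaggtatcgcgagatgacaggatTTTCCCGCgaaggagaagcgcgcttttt
DNMT1: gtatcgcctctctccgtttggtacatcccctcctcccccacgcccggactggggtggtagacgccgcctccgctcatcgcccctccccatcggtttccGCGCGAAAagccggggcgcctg
EZH2: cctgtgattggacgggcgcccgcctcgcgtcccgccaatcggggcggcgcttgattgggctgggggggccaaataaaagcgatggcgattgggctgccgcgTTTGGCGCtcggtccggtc
CHAF1A: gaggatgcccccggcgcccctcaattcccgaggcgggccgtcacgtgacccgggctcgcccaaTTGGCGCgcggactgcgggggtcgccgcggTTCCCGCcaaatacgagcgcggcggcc
The UHRF1 match in the printed window spans -14 to -7 from the start, and HELLS holds 2 matches, at -76 to -69 and at -8 to -1. UHRF1 has 3 windows, of which the first is printed, and window 2 holds a further match at -160 to -153 from its own start. The DNMT1 match spans the start itself, from -2 to 6, and that of EZH2 lies at 2 to 9. CHAF1A has the shorter letters at -37 to -31 and -7 to -1. A match is a run of letters and was not tested as a binding site. Neither TET1 nor TET2, DNMT3A or DNMT3B holds either form of the E2F-type letters.

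With 72 hours of CDK4/6i in CHL1, EZH2, UHRF1 and CHAF1A were lower, and the other 7 genes had negative log2 fold changes that did not pass the threshold of an adjusted p of 0.05. The 3 calls of 10 stand beside a background of 4.98% of all genes called and 2.72% called lower. The count was 5 with DESeq2, at 8.07% of all genes, 7 with the GC correction, at 16.1%, and 9 when only the compared groups were fitted, at 20.3%. The libraries of the treated cells lay below both controls for all 10 genes, as groups without overlap did for 58.1% of all genes in either direction. The question is whether arrest by palbociclib changes the machinery that copies DNA methylation and chromatin.

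The maintenance genes come first. DNMT1, on GRCh37 at chr19:10244018-10341962, minus strand, with exons overlapping those of S1PR2, had 326 and 302 CPM in the CHL1 controls, 207 and 195 CPM with 72 hours of CDK4/6i and 181 and 165 CPM at 6 days. Each treated library lay below each control, and the log2 fold change was -0.65 ± 0.174 (SE, adjusted p = 0.0553, edgeR) at 72 hours and -0.85 ± 0.175 (adjusted p = 0.00775) at 6 days, against the 72-hour control. DNMT1 thus missed the threshold at 72 hours and passed it at 6 days.

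UHRF1 (chr19:4903092-4962165, plus strand) measured 150 and 124 CPM in these controls, 76.3 and 75.1 CPM after 72 hours of CDK4/6i and 80.5 and 61.5 CPM after 6 days. The groups did not overlap at either time, with a 1.81-fold lower level at 72 hours (log2 -0.86 ± 0.187, adjusted p = 0.0259, edgeR) and a 1.91-fold lower level at 6 days (adjusted p = 0.00703, edgeR). HELLS (chr10:96305086-96373662, plus strand, overlapping 1 unnamed gene) had 98.1 and 101 CPM in the controls, 53.0 and 64.0 CPM at 72 hours and 60.9 and 39.6 CPM at 6 days. All treated libraries were low, and the change of -0.77 ± 0.202 at 72 hours just missed the threshold (adjusted p = 0.0504, edgeR) that the change of -0.97 ± 0.203 at 6 days passed (adjusted p = 0.00846, edgeR).

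EZH2 (chr7:148504349-148581413, minus strand) had the largest decrease among the 10 genes in CHL1. It measured 173 and 179 CPM in the controls, 87.1 and 94.3 CPM after 72 hours and 75.6 and 69.4 CPM after 6 days. The level was 1.94-fold lower at 72 hours (log2 -0.96 ± 0.146, adjusted p = 0.00501, edgeR) and 2.40-fold lower at 6 days (log2 -1.26 ± 0.147, adjusted p = 0.00052, edgeR). CHAF1A (chr19:4402637-4445015, plus strand, overlapping UBXN6 and an unnamed gene on the other strand, which counts without strand would not separate) had 108 and 94.2 CPM in the controls, 65.0 and 55.5 CPM at 72 hours and 56.8 and 57.0 CPM at 6 days. It was 1.68-fold lower at 72 hours (adjusted p = 0.0244, edgeR) and 1.76-fold lower at 6 days (adjusted p = 0.00649, edgeR).

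The de novo enzymes differed from each other in level and in call. DNMT3B (chr20:31350191-31397165, plus strand) had 18.4 and 19.8 CPM in the controls, 13.3 and 12.6 CPM at 72 hours and 9.53 and 9.16 CPM at 6 days. The level at 6 days was 2.02-fold lower (adjusted p = 0.00407, edgeR), while the change of -0.56 ± 0.179 at 72 hours did not pass (adjusted p = 0.0948, edgeR). DNMT3A (chr2:25450724-25565459, minus strand) had 58.6 and 66.6 CPM in the controls, 49.5 and 50.8 CPM at 72 hours and 44.2 and 55.1 CPM at 6 days, with changes of -0.32 ± 0.183 at both times (adjusted p = 0.365 and 0.258, edgeR).

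The 3 TET genes had negative values throughout in CHL1 with CDK4/6i, and only TET3 at 6 days passed the threshold. TET3 (chr2:74212037-74335303, plus strand, overlapping 1 unnamed gene) measured 190 and 180 CPM in the controls, 143 and 136 CPM at 72 hours and 110 and 120 CPM at 6 days, which was 1.60-fold lower (log2 -0.67 ± 0.143, adjusted p = 0.00873, edgeR). TET2 (chr4:106067032-106200973, plus strand) had 77.3 and 75.9 CPM in the controls and 52.0 to 58.7 CPM in the 4 treated libraries, with an adjusted p of 0.112 at 72 hours and 0.065 at 6 days (edgeR). TET1 (chr10:70320094-70454244, plus strand) had 49.9 and 56.2 CPM in the controls and 36.7 to 43.3 CPM in the treated libraries, with an adjusted p of 0.191 and 0.0736 (edgeR).

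At 6 days, 7 of the 10 genes were called in CHL1, all lower, at a background of 16.6% called and 7.8% called lower. Since the control is of 72 hours, treatment and days in culture cannot be told apart in this comparison. All 10 changes were negative, and all 10 genes had treated libraries below both controls, against 60.8% of all genes without overlap. No member differed between 6 days and 72 hours of CDK4/6i, at a background of 0.0145%, and the change between these times was largest for DNMT3B, at -0.45 (95% interval -0.85 to -0.05, adjusted p = 0.568, edgeR). At an unadjusted p under 0.05 the count was 1 of 10, and DESeq2 called 0. With any 1 of the 4 libraries left out of the 72-hour comparison, 0 of its 3 calls remained, with changes of -0.91 to -1.02 for EZH2. Of the 7 calls at 6 days, 2 remained without control replicate 1 and 3 without control replicate 2.

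In A375, 72 hours of CDK4/6i lowered EZH2, HELLS, UHRF1, DNMT3B, CHAF1A and DNMT1. These 6 of 10 stand beside 13.3% of all genes called and 7.11% called lower. HELLS had 93.2 and 90.5 CPM in the controls and 30.0 and 28.8 CPM with CDK4/6i, 3.25-fold lower (log2 -1.70 ± 0.172, adjusted p = 2.57e-05, edgeR). EZH2 went from 89.1 and 92.9 CPM to 23.8 and 25.6 CPM, 3.83-fold lower (log2 -1.94 ± 0.171, adjusted p = 1.37e-05, edgeR). UHRF1 went from 227 and 268 CPM to 75.5 and 83.7 CPM, 3.24-fold lower (log2 -1.69 ± 0.216, adjusted p = 0.000107, edgeR). For these 3 genes the treated libraries agreed closely and lay far below both controls.

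CHAF1A measured 99.1 and 101 CPM in the 72-hour A375 controls and 43.3 and 44.2 CPM with CDK4/6i, 2.38-fold lower (adjusted p = 0.00123, edgeR). DNMT3B measured 19.8 and 20.5 CPM in the controls and 8.56 and 7.46 CPM when treated, 2.62-fold lower (adjusted p = 0.00111, edgeR). DNMT1 measured 386 and 425 CPM in the controls and 237 and 250 CPM when treated, 1.73-fold lower (log2 -0.79 ± 0.219, adjusted p = 0.0252, edgeR). None of these groups overlapped, as for 66.3% of all genes, and without any 1 of the 4 libraries the other 5 calls remained but that of DNMT1 did not (adjusted p of 0.0948 to 0.192).

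The remaining genes were not called in A375 at 72 hours. TET1 had 39.2 and 33.2 CPM in the controls and 22.2 and 21.4 CPM when treated (log2 -0.79 ± 0.257, adjusted p = 0.0536, edgeR). DNMT3A had 29.0 and 25.6 CPM in the controls and 27.2 and 31.4 CPM when treated, and was the only member whose groups overlapped (log2 0.04, 95% interval -0.36 to 0.45). TET2 and TET3 had changes of -0.26 each, with adjusted p of 0.385 and 0.326 (edgeR).

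At 6 days of CDK4/6i, A375 showed low HELLS, EZH2, TET1, UHRF1 and TET2 and high DNMT3A relative to the 6-day control. These 6 calls of 10, with 5 lower and 1 higher, stand beside 43.1% of all genes called, of which 21.3% of all genes were lower and 21.8% higher. The A375 6-day controls stood apart from each other, with a chi-square per degree of freedom of 118 against 7.6 to 53.8 in the other groups. HELLS had 155 and 124 CPM in these controls and 36.97 and 36.60 CPM with CDK4/6i (log2 -1.92 ± 0.171, adjusted p = 2.81e-06, edgeR). EZH2 had 122 and 106 CPM in the controls and 34.3 and 38.2 CPM when treated (log2 -1.66 ± 0.167, adjusted p = 6.95e-06, edgeR). UHRF1 had 114 and 177 CPM in the controls and 72.49 and 72.99 CPM when treated (log2 -1.01 ± 0.212, adjusted p = 0.00153, edgeR). In all 3 genes the treated libraries agreed closely and lay below both controls.

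DNMT3A was higher at 6 days in A375, with 39.6 and 40.4 CPM against 19.8 and 25.1 CPM in the controls (log2 0.83 ± 0.190, adjusted p = 0.00289, edgeR). TET2 had 104 and 77.2 CPM in the controls and 45.0 and 46.9 CPM when treated (log2 -0.98 ± 0.177, adjusted p = 0.000534, edgeR), and TET1 had 64.3 and 34.3 CPM in the controls and 26.5 and 18.1 CPM when treated (log2 -1.14 ± 0.254, adjusted p = 0.00228, edgeR). DNMT1 had 172 and 280 CPM in the controls, on both sides of the 230 and 232 CPM of the treated libraries (log2 0.02 ± 0.218, adjusted p = 0.956, edgeR). CHAF1A had 40.1 and 65.7 CPM in the controls and 41.2 and 40.9 CPM when treated, so that these groups also overlapped, whereas the other 8 genes had no overlap, against 68% of all genes.

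The calls at 6 days in A375 depended on the control and on the GC trend of that control. Correction for GC led to calls for all 10 genes, 9 lower and DNMT3A higher (log2 0.34, adjusted p = 0.0316, edgeR), at a background of 42.3%. DNMT1 then had -0.46 (adjusted p = 0.0145, edgeR), DNMT3B -0.98 (adjusted p = 0.0009, edgeR) and CHAF1A -0.90 (adjusted p = 0.000153, edgeR). Against the 72-hour A375 control, which differs in time and in library set, 7 were lower and 0 higher, at 31.2% of all genes called, with DNMT1 at -0.86 (adjusted p = 0.00722, edgeR). Not called against it were TET2 at -0.09 (adjusted p = 0.746), TET3 at -0.08 (adjusted p = 0.763) and DNMT3A at 0.51 (adjusted p = 0.0537, edgeR). UHRF1, HELLS, EZH2 and TET1 were lower under all 3 analyses, with -1.81, -1.37, -1.37 and -0.74 against the 72-hour control.

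**Figure D2:**
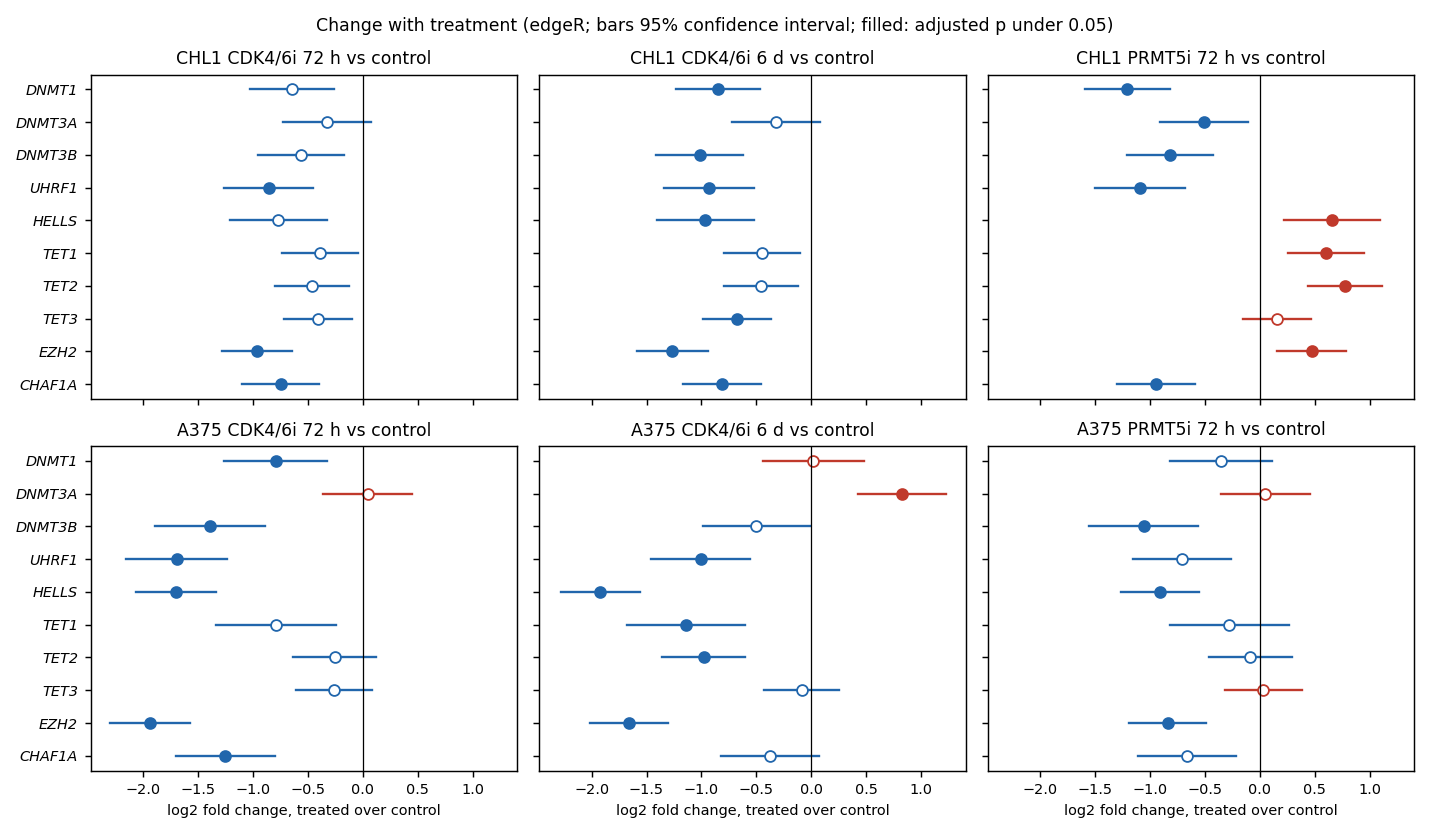
Log2 fold change of each gene (horizontal axis) in the 6 comparisons of treated with control cells (panels), with bars for the 95% confidence interval, blue for negative and red for positive values, and filled dots for an adjusted p under 0.05 with edgeR. EZH2 and UHRF1 are filled and negative in all 4 CDK4/6i panels, and the CHL1 PRMT5i panel has 4 filled positive and 5 filled negative genes.

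Across the 4 CDK4/6i comparisons, EZH2 and UHRF1 were the 2 genes called lower in every one, with log2 fold changes of -0.96 to -1.94 for EZH2 and -0.86 to -1.69 for UHRF1. HELLS and CHAF1A were called lower in 3, DNMT1 and DNMT3B in 2, and TET1, TET2 and TET3 in 1 each. DNMT3A was called lower in 0 and higher in 1. Of all genes, 2.72% and 7.8% were called lower in CHL1 at 72 hours and 6 days, and 7.11% and 21.3% in A375. The share of all genes called lower in all 4 comparisons was not counted. The CHL1 comparisons share their control. In bulk RNA, fewer cells in S phase and less RNA of these genes in each cell cannot be told apart. The summed level of the 14 S-phase and proliferation markers was also lower, at 2551 to 2978 CPM in the CHL1 controls against 1765 to 1810 CPM at 72 hours of CDK4/6i and 1585 to 1841 CPM at 6 days. In A375 the sums were 2673 to 3218 CPM in the 72-hour controls against 1161 to 1266 CPM, and 1984 to 2205 CPM in the 6-day controls against 1021 to 1145 CPM. Of these 14 markers 4 were called lower in CHL1 at 72 hours, 6 at 6 days, 14 in A375 at 72 hours and 7 at 6 days, and 0 were called higher. The shares of all genes called lower are those given above. These counts were 7, 10, 14 and 12 with the GC correction, beside 16.1%, 32.6%, 28.8% and 42.3% of all fitted genes called in either direction. The part of this shift in the changes of the 10 genes was not tested.

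The lines differed in their 72-hour response to CDK4/6i in EZH2 alone among the 10 genes, at a background of 0.642% of all genes, 0.241% with the higher value in CHL1. Its change in CHL1 minus that in A375 was 0.92 ± 0.205 on the log2 scale (95% interval 0.49 to 1.35, adjusted p = 0.0476, edgeR), so that the decrease was smaller in CHL1. HELLS, UHRF1 and DNMT3B had differences of 0.88, 0.78 and 0.77, which did not pass (adjusted p = 0.156, 0.284 and 0.284, edgeR). These 4 genes were all called with the GC correction, at 3.77% of all genes, with differences of 0.83 to 0.92. Without any 1 of the 8 libraries the call of EZH2 was lost, with an adjusted p of 0.105 to 0.253.

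At 6 days, 4 of 10 genes differed between the lines at a background of 21.9%, of which 12.4% of all genes had the higher and 9.51% the lower value in CHL1. CHL1 had no 6-day control and was set against its 72-hour control. Line and time of the control therefore cannot be told apart in these differences. The response of DNMT3A was lower in CHL1 by 1.17 ± 0.257 (adjusted p = 0.00421, edgeR), with values of -0.32 in CHL1 and 0.83 in A375. DNMT1 differed by -0.89 ± 0.284 (adjusted p = 0.0319, edgeR), TET3 by -0.60 ± 0.195 (adjusted p = 0.0347, edgeR) and HELLS by 0.94 ± 0.258 (adjusted p = 0.0157, edgeR). Against the 72-hour A375 control, of another library set, the A375 changes were 0.51 for DNMT3A, -0.86 for DNMT1, -0.08 for TET3 and -1.37 for HELLS. The line difference with that control was not tested. With the GC correction, only DNMT3A of the 10 genes remained called between the lines, at -0.69 (adjusted p = 0.00778, edgeR), beside 25.3% of all genes. The count was 1 without either CHL1 control or without CHL1 CDK4/6i replicate 1, 2 without A375 6-day control replicate 1 or either A375 treated library, and 8 without A375 6-day control replicate 2. Within A375, the response at 6 days minus that at 72 hours passed the threshold for 0 of 10 genes (6 at an unadjusted p under 0.05, 1 with DESeq2) at a background of 1.08%, and for 6 without that same control library.

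PRMT5i in CHL1 divided the 10 genes. TET2, HELLS, TET1 and EZH2 were higher and DNMT1, UHRF1, CHAF1A, DNMT3B and DNMT3A lower than in the control, while TET3 was not called. These 9 calls stand beside 54% of all genes called, of which 26.4% of all genes were higher and 27.6% lower. The groups did not overlap for any of the 10, as for 75.8% of all genes.

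DNMT1 fell from 326 and 302 CPM to 113 and 155 CPM, 2.31-fold (log2 -1.21 ± 0.176, adjusted p = 0.000223, edgeR). UHRF1 fell from 150 and 124 CPM to 56.4 and 70.6 CPM (log2 -1.09 ± 0.188, adjusted p = 0.000525, edgeR). CHAF1A fell from 108 and 94.2 CPM to 48.1 and 55.5 CPM (log2 -0.94 ± 0.162, adjusted p = 0.000504, edgeR). In each of the 3, PRMT5i replicate 1, which has the stronger GC trend, was the lowest library. DNMT3B had 9.79 and 11.5 CPM with PRMT5i (log2 -0.82, adjusted p = 0.00222, edgeR), and DNMT3A 37.1 and 49.6 CPM (log2 -0.51, adjusted p = 0.0331, edgeR).

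Among the genes that rose, TET2, an enzyme of 5-methylcytosine oxidation, went from 77.3 and 75.9 CPM to 120 and 139 CPM (log2 0.78 ± 0.154, adjusted p = 0.00119, edgeR). TET1 went from 49.9 and 56.2 CPM to 77.9 and 80.9 CPM (log2 0.60 ± 0.158, adjusted p = 0.00668, edgeR). HELLS went from 98.1 and 101 CPM to 156 and 154 CPM (log2 0.66 ± 0.200, adjusted p = 0.0147, edgeR). All treated libraries exceeded both controls. EZH2 went from 173 and 179 CPM to 244 and 237 CPM (log2 0.47 ± 0.145, adjusted p = 0.0156, edgeR), and TET3 had 201 and 206 CPM against 190 and 180 CPM (log2 0.16 ± 0.142, adjusted p = 0.384, edgeR).

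The direction in CHL1 with PRMT5i followed the GC content of the transcripts. The 4 genes that rose have 39.5% to 43.0% GC in their longest transcript, the 5 that fell 53.7% to 57.7%, and TET3 53.2%. With the GC correction, 2 of the 10 were called, at a background of 34.4%. TET3 was then higher, with 0.82 (adjusted p = 0.000647, edgeR), and DNMT1 lower, with -0.35 (adjusted p = 0.0413, edgeR). HELLS, EZH2, CHAF1A and DNMT3A changed sign and were not called, at -0.20, -0.25, 0.12 and 0.19, while UHRF1 was at -0.29, DNMT3B at -0.06, TET2 at 0.30 and TET1 at 0.01. The correction removes any change that follows GC content, whatever its origin, so that a response of the cells and an effect of library preparation cannot be told apart. Without CHL1 control replicate 1, 5 of the 9 uncorrected calls remained.

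**Figure D3:**
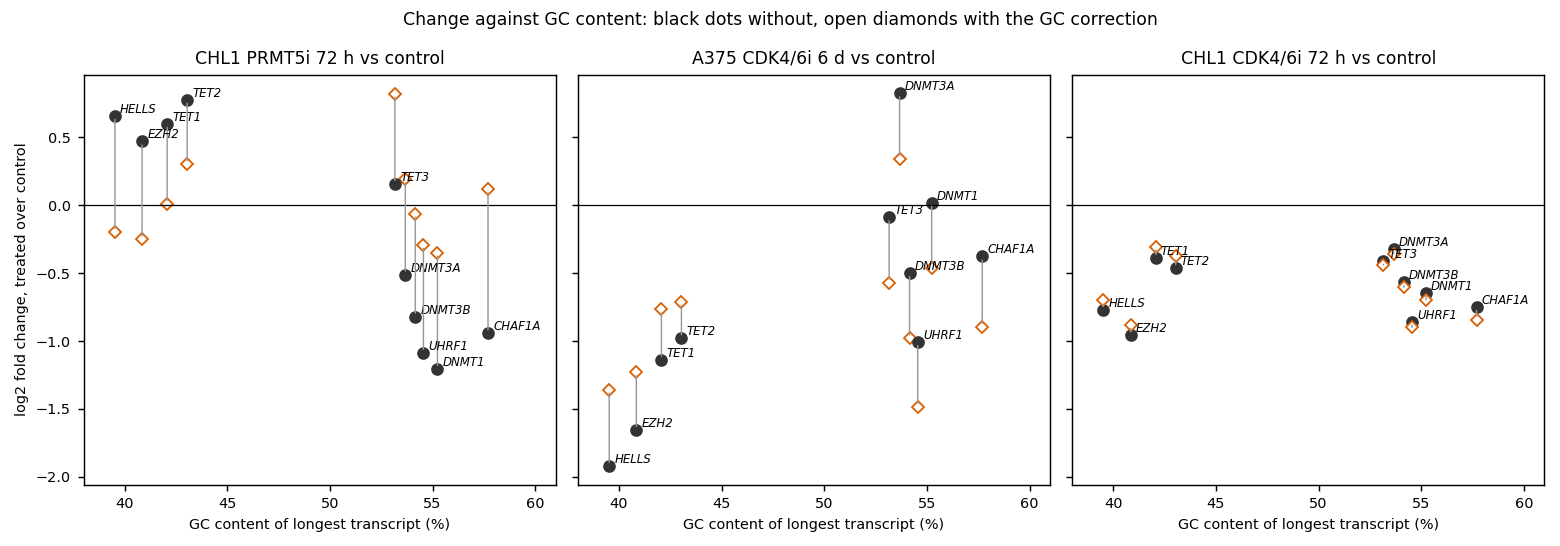
Log2 fold change of the 10 genes (vertical axis) against the GC content of their longest transcript in percent (horizontal axis), without (black dots) and with the GC correction (open diamonds), in 3 comparisons. In the CHL1 PRMT5i panel the 4 genes between 39.5% and 43.0% GC lie above 0 and 5 of the 6 between 53.2% and 57.7% below it before correction, in the A375 6-day panel the same 4 genes lie between -1.92 and -0.98 before correction and UHRF1 lies at -1.01, and in the CHL1 CDK4/6i 72-hour panel dots and diamonds nearly coincide.

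In A375 with PRMT5i, DNMT3B, HELLS and EZH2 were lower. The 3 calls of 10 stand beside 2.61% of all genes called and 1.74% called lower. HELLS had 93.2 and 90.5 CPM in the controls and 50.7 and 48.1 CPM with PRMT5i (log2 -0.91 ± 0.168, adjusted p = 0.0112, edgeR). EZH2 had 89.1 and 92.9 CPM in the controls and 51.0 and 51.7 CPM when treated (log2 -0.84 ± 0.165, adjusted p = 0.0145, edgeR). DNMT3B had 19.8 and 20.5 CPM in the controls and 10.1 and 9.41 CPM when treated (log2 -1.06 ± 0.232, adjusted p = 0.0254, edgeR). The treated libraries were low and the groups did not overlap in these 3 genes or in 5 of the others, against 53.1% of all genes.

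UHRF1 and CHAF1A also lay below both A375 controls with PRMT5i, at 145 and 160 CPM and at 64.9 and 62.8 CPM, without passing the threshold (log2 -0.71, adjusted p = 0.0897, and -0.66, adjusted p = 0.116, edgeR). Both were called with the GC correction, which raised the count to 5 at 10.3% of all genes. DNMT1, with 303 and 337 CPM, had -0.35 (95% interval -0.82 to 0.11), and DNMT3A, TET1, TET2 and TET3 had -0.28 to 0.05, with adjusted p of 0.653 to 0.967 (edgeR). Without any 1 of the 4 libraries, 0 of the 3 calls remained, with values of -0.82 to -0.86 for EZH2. The 14 S-phase markers summed to 1691 to 1828 CPM with PRMT5i, and 5 of them were called lower, or 9 with the GC correction.

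The response to PRMT5i differed between the lines in 5 of 10 genes, at a background of 40.9%, of which 18.8% of all genes had the higher and 22.1% the lower value in CHL1. The change in CHL1 minus that in A375 was 1.53 ± 0.259 for HELLS (adjusted p = 0.000381, edgeR), 1.28 ± 0.204 for EZH2 (adjusted p = 0.00028, edgeR), 0.84 ± 0.331 for TET1 (adjusted p = 0.0489, edgeR), 0.83 ± 0.231 for TET2 (adjusted p = 0.00775, edgeR) and -0.88 ± 0.284 for DNMT1 (adjusted p = 0.0182, edgeR). With the GC correction 5 genes were called at 26% of all genes, all with the higher value in CHL1, namely DNMT3B at 1.05, TET3 and CHAF1A at 0.84, HELLS at 0.63 and EZH2 at 0.53. HELLS and EZH2 were thus called under both analyses, and DNMT1 had 0.06 (adjusted p = 0.826, edgeR). The count was 3 without CHL1 PRMT5i replicate 1, A375 control replicate 1 or A375 PRMT5i replicate 2.

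**Figure D4:**
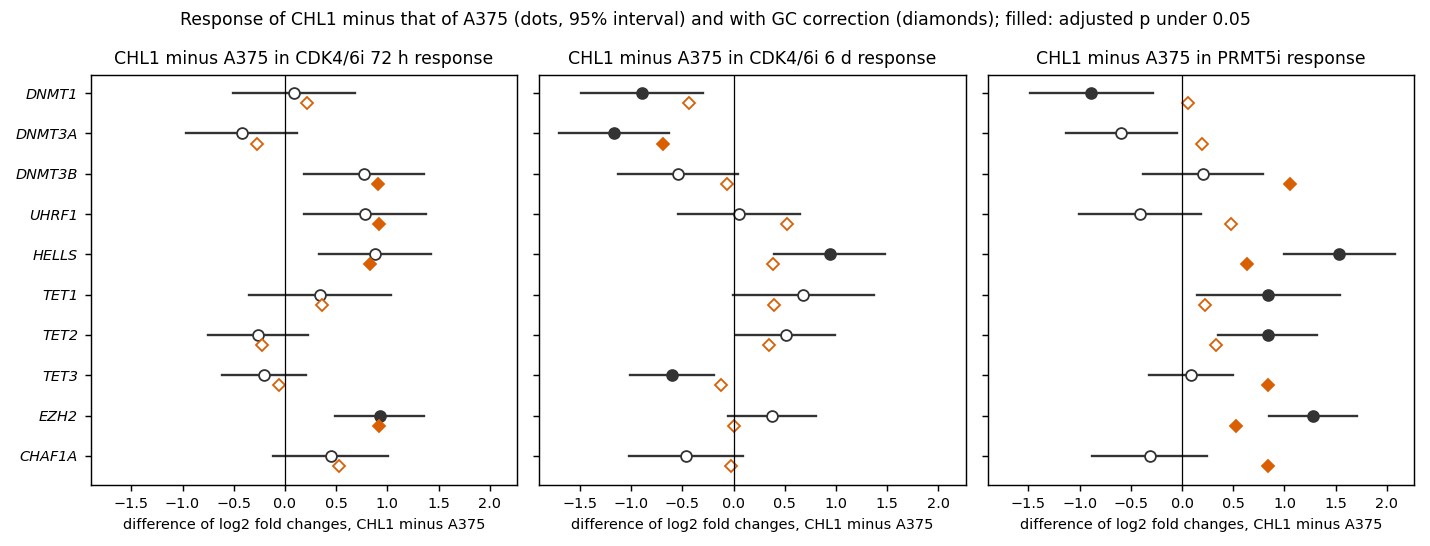
Log2 fold change in CHL1 minus that in A375 (horizontal axis) for each gene and treatment (panels), with dots and 95% intervals from edgeR, diamonds for the GC-corrected value, and filled symbols for an adjusted p under 0.05. EZH2 is filled in both forms at 72 hours of CDK4/6i, at 0.92, and HELLS and EZH2 are in the PRMT5i panel.

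Palbociclib and GSK3326595 act on different targets and were given at different doses, 1 μM and 500 nM, at which their 72-hour libraries were compared directly. In A375, UHRF1, EZH2 and HELLS were higher with PRMT5i than with CDK4/6i, by 0.99 ± 0.212 (adjusted p = 0.014), 1.10 ± 0.168 (adjusted p = 0.00228) and 0.80 ± 0.170 (adjusted p = 0.0134, edgeR). These 3 of 10 stand beside 5.45% of all genes, or 2.37% called higher, and all 10 differences were positive. The count was 0 without CDK4/6i replicate 1 and 1, for EZH2, without any 1 of the other 3 libraries. In CHL1, HELLS and EZH2 were each 2.69-fold higher with PRMT5i, TET2 2.36-fold, TET1 1.98-fold and TET3 1.48-fold, and DNMT1 was 1.47-fold lower (adjusted p of 1.98e-05 to 0.0154, edgeR). These 6 of 10 stand beside 57.8% of all genes, 28.4% higher and 29.4% lower, and with the GC correction all 10 were higher with PRMT5i, at 47.7%, DNMT1 included at 0.35 (adjusted p = 0.0315, edgeR).

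Of 9 measured DNMT cofactors and maintenance genes, 3 were lower in CHL1 at 72 hours of CDK4/6i, 6 at 6 days and 6 in A375 at 72 hours, with 0 higher, and in A375 at 6 days 5 were lower and 1 higher, beside 2.72%, 7.8%, 7.11% and 21.3% of all genes called lower. The list's median log2 fold change was -0.42, -0.69, -0.78 and -0.65 in that order, against 0 to 0.10 over all genes. PCNA, the sliding clamp that holds DNMT1 at the fork, had -1.01, -1.18, -1.16 and -1.36 (adjusted p = 0.0359 or lower, edgeR). CDCA7, which works with HELLS as a remodeller, had -1.70 in A375 at 72 hours and -1.95 at 6 days, and the DNA ligase LIG1 had -1.25 in A375 at 72 hours.

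Of 10 PRC2 subunits other than EZH2, 5 were lower in A375 at 72 hours (PHF19 at -1.33, SUZ12 at -0.75 and EED at -0.71) and 6 at 6 days (SUZ12 at -1.44, AEBP2 at -1.23 and MTF2 at -1.08), with 0 higher, beside 7.11% and 21.3% of all genes called lower. In CHL1 1 was lower at each time, PHF19 at 72 hours (-0.84) and EED at 6 days (-0.52), beside 2.72% and 7.8% of all genes. With the GC correction the A375 counts were 7 and 4, beside 28.8% and 42.3% of all fitted genes called, so that the 6-day count was near that share. MTF2 at 6 days then had -0.26 and missed the threshold (adjusted p = 0.0526, edgeR). The 6-day values of SUZ12 and AEBP2 above are uncorrected. These counts by line do not by themselves show a difference between the lines, and the tests of that difference for this list are not reported here.

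Of 13 measured histone chaperones, 3 were lower in CHL1 with CDK4/6i at each time and 4 in A375 at each time, with 0 higher except 2 in A375 at 6 days, which were 0 with the GC correction. The shares of all genes called lower were 2.72% and 7.8% in CHL1 and 7.11% and 21.3% in A375. CHAF1B, the partner of CHAF1A in CAF-1, had -1.70 in A375 at 72 hours and -0.76 at 6 days. MMS22L, which handles histones at stalled forks, had -0.88 and -0.83 in CHL1 and -1.87 and -2.13 in A375, and the FACT subunit SSRP1 had -0.82 and -0.98 in CHL1.

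Of 8 methyl-CpG readers, 2 and 3 were called in CHL1 after 72 hours and 6 days with CDK4/6i, and 1 and 3 in A375, beside 4.98%, 16.6%, 13.3% and 43.1% of all genes. The zinc-finger proteins ZBTB33 (0.74) and ZBTB4 (0.71) rose in CHL1 at 72 hours and again at 6 days, at 0.94 and 0.85, and ZBTB4 rose in A375 at 72 hours (0.75) and 6 days (0.84). ZBTB33 was not called in A375, with -0.64 at 6 days (adjusted p = 0.0698, edgeR). The methyl-CpG binding protein MBD1 rose in A375 at 6 days, by 1.11 (adjusted p = 0.000273, edgeR), or 0.66 with the GC correction. MBD2 fell in both lines at 6 days, by 0.68 in CHL1 and 0.91 in A375. Of 11 partners of DNA demethylation, 0 were called at 72 hours in either line, 1 was higher in CHL1 at 6 days (GADD45A at 0.74), and 3 were higher and 2 lower in A375 at 6 days, where 43.1% of all genes were called. GADD45A was among the latter, at -0.68. Of 9 genes of H3K9 methylation and HP1, 0 and 1 were lower in CHL1, and 3 and 5 in A375, at the shares of all genes given for the chaperones, and in A375 the HP1 protein CBX5 had -0.64 and -1.06. With median-of-ratios scaling the count of 3 became 1, beside 12.8% of all genes called, and with the GC correction 6, beside 28.8%. In A375 at 6 days 1 was higher, and 0 with the GC correction.

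With PRMT5i in CHL1 and without the GC correction, the lists had called genes in both directions, as the 10 genes did. The counts of higher and lower genes were 2 and 2 for the DNMT cofactors, 3 and 3 for the readers, 2 and 6 for demethylation, 4 and 3 for PRC2, 2 and 8 for the chaperones and 3 and 3 for H3K9 methylation, beside 26.4% of all genes called higher and 27.6% lower. With the GC correction, at 34.4% of all genes called, they were 2 and 4 for the cofactors and 4 and 4 for the chaperones. The other lists then had calls in 1 direction, with 2 and 0 for the readers, 0 and 3 for demethylation, 0 and 2 for PRC2 and 2 and 0 for H3K9 methylation. UHRF2, the paralogue of UHRF1, had 1.61 and kept 1.28 with the GC correction (adjusted p = 0.000638, edgeR). The chaperone ASF1B had -1.81 and -0.87 when corrected (adjusted p = 0.00166, edgeR), and IDH2 -1.72 and -0.83 (adjusted p = 0.00559, edgeR). The 14 S-phase markers summed to 1876 to 2410 CPM, with 2 higher and 8 lower, and 0 higher and 3 lower when corrected. ZBTB4 (-0.997), TRIM28 (-1.47) and E2F1 (-1.29) had corrected values of 0.01, -0.13 and -0.03. In A375 with PRMT5i, 2 chaperones were lower, ASF1B at -1.24 and MMS22L at -0.79, GADD45A was higher at 0.94, and 0 genes of the DNMT cofactors, readers, PRC2 and H3K9 lists were called. After GC correction 3 cofactors and 2 PRC2 genes were lower and 1 reader higher, beside 10.3% of all fitted genes called.

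**Figure D5:**
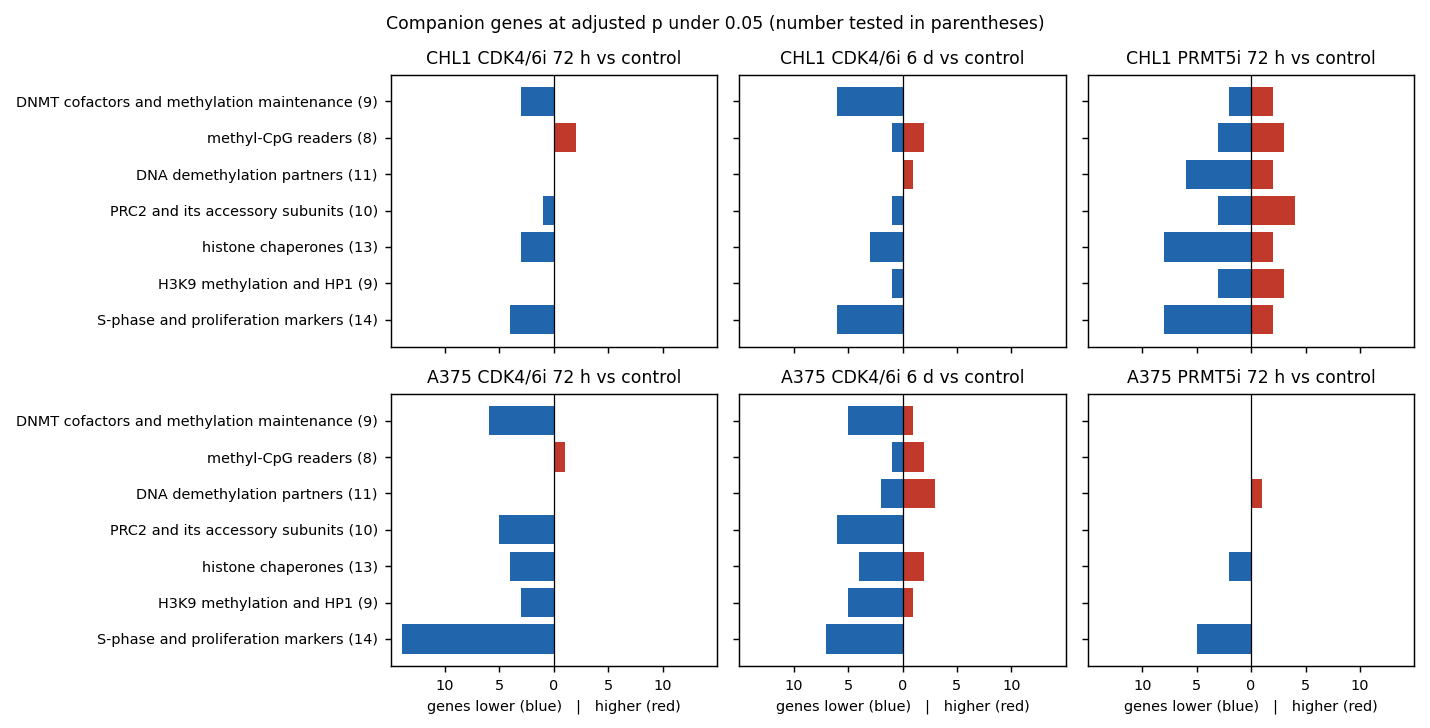
Number of genes at an adjusted p under 0.05 (horizontal axis), lower to the left in blue and higher to the right in red, for the 7 companion lists (vertical axis, genes tested in parentheses) in the 6 comparisons, without GC correction. All 14 S-phase markers are lower in A375 with CDK4/6i at 72 hours, and the CHL1 PRMT5i panel has bars on both sides in every list.

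The genes whose pattern over the 18 libraries lay nearest to each member were found by the root-mean-square (RMS) difference of log2 CPM, centred within each line, among 15657 genes. DNMT1 lay nearest to RFC2 (0.0809), UHRF1 to GINS2 (0.158), HELLS to DEPDC1B (0.126) and EZH2 to EXO1 (0.151), with HELLS as the third nearest to EZH2 (0.154). CHAF1A lay nearest to ESPL1 (0.117), and DNMT3B to CHAF1A (0.150). DNMT3A lay nearest to CLEC16A (0.107), TET1 to PDE8A (0.149), TET2 to PSPC1 (0.0972) and TET3 to LARP4B (0.0786). Among the members themselves, DNMT1 lay at 0.182 from CHAF1A and at 0.866 from HELLS, which differ in GC content (57.7% and 39.5%), and the part of the GC trend in these distances was not tested.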

How the data were processed

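Poly-A RNA libraries were prepared by the authors with a TruSeq kit whose strandedness is not stated and sequenced in paired ends. Per the labels, reads were aligned with HISAT2 2.0.4 to GRCh37, Picard 2.17.3 and SAMtools 1.18 were used on the alignments, and HTSeq counted reads on genes. The deposited table holds counts per gene symbol, as whole numbers whose totals differ between libraries. The name of the table speaks of normalised reads. However, in each of the 18 libraries every value from 1 to 100 occurred, whereas multiplying them by 1.3 or 1.5 and rounding left 23 or 33 of these values empty. No value from 4 to 50 was more than 1.59 times as frequent as its neighbours, whereas factors of 0.8 and 0.9 gave ratios of at least 2.0 in every library. The values were therefore used as unscaled counts.

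The members and companion lists were chosen with earlier results of these data known. Libraries were grouped by line, treatment and time from their labels. Counts were scaled by TMM and tested with the quasi-likelihood test of edgeR 4.0.16 in R 4.3.3, with a fit per line (8 CHL1, 10 A375 libraries) or of all 18 libraries for differences between lines. P-values were adjusted by Benjamini-Hochberg over all 20705 genes and called under 0.05, two-sided. The standard error is the log2 fold change divided by the root of F. Of each companion list, up to 3 called genes of largest change with a mean of at least 1 CPM qualified for naming, and DNMT3L and other unmatched genes were not analysed here. For likeness a pseudocount of 1 CPM was used. For the GC correction, a loess curve (span 0.4) of each library on GC content of the longest transcript (GENCODE on GRCh37) was entered as an offset for 13655 genes. Scripts were tested on simulated data. Alternatives were scaling by median of ratios, DESeq2 1.42.0, 1 CPM or more in 2 libraries as a filter, only the compared groups, other A375 controls, a replicate block and leaving out each library. The crossed replicate block was chosen after seeing the data.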

Additional observations from a re-analysis of the deposited data

Results flagged for a closer look

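The change from the control of the line differed between CHL1 and A375 for 7 of the 10 genes in at least 1 of 3 treatments. The test was the interaction term of edgeR in the fit of all libraries. DNMT3A and TET3 are among the 7 by the 6-day term alone. The share of all genes passing at least 1 of these terms was not counted. These terms passed for 0.642% of all genes at 72 hours of CDK4/6i, 21.9% at 6 days and 40.9% with PRMT5i, the last near the 5 of 10 members. With 72 hours of CDK4/6i, EZH2 fell less in CHL1, with a difference of 0.92 ± 0.205 on the log2 scale (adjusted p = 0.0476), a call that was lost without any 1 of the 8 libraries.

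With 6 days of CDK4/6i the difference, CHL1 minus A375, was -0.89 ± 0.284 for DNMT1 (adjusted p = 0.0319), -1.17 ± 0.257 for DNMT3A (adjusted p = 0.00421), -0.60 ± 0.195 for TET3 (adjusted p = 0.0347) and 0.94 ± 0.258 for HELLS (adjusted p = 0.0157).

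With PRMT5i it was -0.88 ± 0.284 for DNMT1 (adjusted p = 0.0182), 1.53 ± 0.259 for HELLS (adjusted p = 0.000381), 0.84 ± 0.331 for TET1 (adjusted p = 0.0489), 0.83 ± 0.231 for TET2 (adjusted p = 0.00775) and 1.28 ± 0.204 for EZH2 (adjusted p = 0.00028). The GC-corrected values of these genes stand in the report, and only EZH2 at 72 hours of CDK4/6i, DNMT3A at 6 days, and HELLS and EZH2 with PRMT5i were called in both analyses.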

How the results depend on the processing

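Over the 14 comparisons and the settings other than leaving out a library, 921 gene values kept their call, and the called ones their direction. A change of sign without a call on either side is included in these 921. Of the other values, 90 gained a call, 30 lost it and 29 changed sign with a call on at least 1 side. Counts of members called that moved by over 1.5 times follow, with the share of all fitted genes called in parentheses. With DESeq2 they were 5 (8.07%) for CHL1 CDK4/6i at 72 hours and 1 (5.53%) for the A375 difference between times. The line difference at 72 hours of CDK4/6i had 2 (1.78%). With only the compared groups fitted they were 9 (20.3%) for CHL1 CDK4/6i at 72 hours and 5 (8.99%) for A375 PRMT5i. PRMT5i against CDK4/6i in A375 then had 6 (21.8%). The line differences at 72 hours and 6 days of CDK4/6i had 4 (8.68%) and 1 (9.03%). With the GC correction they were 7 (16.1%) for CHL1 CDK4/6i at 72 hours and 2 (34.4%) for CHL1 PRMT5i. In A375 they were 10 (42.3%) for CDK4/6i at 6 days and 5 (10.3%) for PRMT5i. PRMT5i against CDK4/6i had 10 (47.7%) in CHL1 and 6 (18.4%) in A375. The same line differences had 4 (3.77%) and 1 (25.3%). DESeq2 called 1671 genes of the whole table for CHL1 CDK4/6i at 72 hours against 1032 with edgeR, and only the compared groups 4202.

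Under the GC correction, and with a replicate block in parentheses, the values that changed sign in CHL1 PRMT5i were 0.12 (0.12) for CHAF1A, 0.19 (0.19) for DNMT3A, -0.25 (-0.25) for EZH2 and -0.20 (-0.20) for HELLS. For PRMT5i against CDK4/6i in CHL1 they were 0.96 (0.96) for CHAF1A, 0.35 (0.35) for DNMT1, 0.55 (0.55) for DNMT3A, 0.54 (0.54) for DNMT3B and 0.61 (0.61) for UHRF1, and for the line difference in PRMT5i 0.84 (0.84) for CHAF1A, 0.061 (0.064) for DNMT1 and 0.47 (0.48) for UHRF1, which was called only with both. DNMT1 in A375 CDK4/6i at 6 days was -0.46 with the GC correction and -0.86 against the 72-hour control. With the 6-day A375 control the line difference of controls was 0.47 for DNMT1, 1.06 for DNMT3B, -0.49 for HELLS and -0.24 for TET2. The cause was not tested.

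Replicate numbers were not taken as pairs, since no label ties them to a shared culture or day and the 2 libraries of a group deviate as mirror images, which leaves 1 correlation for each pair of groups. Deviations of equal numbers correlated at 0.218 to 0.481 within A375 at 72 hours and at -0.336 to 0.444 in CHL1. The fits with a replicate block left out the A375 6-day libraries, so in A375 the block and the libraries fitted changed together. With the block the count was 9 for A375 CDK4/6i at 72 hours (TET1, TET2 and TET3 added, at 42.3% of all genes), 7 for A375 PRMT5i (DNMT1, UHRF1, CHAF1A and TET1 added, at 29.5%) and 7 for A375 PRMT5i against CDK4/6i (at 34.6%). With only the compared groups and no block these counts were 8 (at 33.5%), 5 (at 8.99%) and 6 (at 21.8%). With the replicate block and GC correction together, the counts that moved are given with the share of all fitted genes called. They were 8 (17.7%) for CHL1 CDK4/6i at 72 hours, 2 (35.8%) for CHL1 PRMT5i and 6 (38.9%) for A375 PRMT5i. PRMT5i against CDK4/6i had 10 (48.8%) in CHL1 and 8 (45.9%) in A375. The line difference at 72 hours of CDK4/6i had 5 (8.98%). With crossed numbers in the block, chosen after seeing the data, 0 members and 6 genes of the table differed between CHL1 CDK4/6i at 6 days and 72 hours, against 0 genes with the uncrossed block.

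Leaving out each library in turn, which assumes that the lone remaining library varies like the other groups, gave 0 to 0 members for CHL1 CDK4/6i at 72 hours, 2 to 7 at 6 days, 5 to 9 for CHL1 PRMT5i, 5 to 5 and 6 to 8 for A375 CDK4/6i at 72 hours and 6 days, and 0 to 0 for A375 PRMT5i. It gave 4 to 6 and 0 to 1 for PRMT5i against CDK4/6i in CHL1 and A375, 0 to 0 for the CHL1 and 0 to 6 for the A375 difference between times, 0 to 0, 1 to 8 and 3 to 5 for the line differences, and 5 to 5 for the controls. It changed the sign of a called value in 0 cases.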
